A study of Mus musculus with 12 samples.

Results

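Genes of DNA replication and of mitosis were followed in primary mouse hepatocytes after knock-down of TLS, an RNA-binding protein. The list held 32 genes chosen by name: 10 that copy DNA or supply its building blocks (Pcna, Mcm2 to Mcm7, Rrm1, Rrm2 and Tyms), 3 cyclins of the entry into S phase (Ccnd1, Ccne1 and Ccne2) and 19 of mitosis. Of these, 30 were measured among 19019 genes tested, each by its brightest probe, and all 30 probes were well above background on all 12 arrays. Ccnd1 and Mki67 had no probe with a matching accession, so their signals are not analysed here, though Mki67 is counted among the promoters below. The genes were chosen with earlier results of these data known. Signals are log2 values that the authors had quantile normalized, a scaling that gives every array the same distribution, so each difference below is relative to the other genes of the array.

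The cells came from C57BL/6 mice with PGC-1alpha (+/+) or without it (-/-), a transcriptional coactivator of energy metabolism. They were infected with 1 of 2 adenoviral vectors, which carried either a hairpin against TLS (shTLS) or a control shRNA. The multiplicity of infection was 5 throughout, and the cells were kept with 100 nM dexamethasone and 100 nM insulin. RNA was taken 24 h after infection, and all 4 groups thus carried virus and both hormones. Each of 3 mice per genotype gave 1 control and 1 shTLS culture, so the groups +/+ control, +/+ shTLS, -/- control and -/- shTLS held 3 arrays each, and every group is limited to 3 animals. The age of the mice and the part of the gene deleted are not given in the sources used here.

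A dividing cell first licenses its replication origins with the Mcm2-7 helicase, copies its DNA in S phase under E and A cyclins, and then enters mitosis when cyclin B and Cdk1 are activated. The genes of both phases are switched on at different times: replication genes through E2F sites late in G1, and mitotic genes later, in G2, through promoter elements called CHR and CCAAT box that are read by the MuvB complex and NF-Y. Adult hepatocytes rest outside the cycle, re-enter it when the liver regenerates, and often copy DNA without dividing, which makes them polyploid.

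Promoter sequences are shown because they differ between both classes of genes in features that the array did not measure. The RefSeq table of promoters (build GRCm38.p6, 250 bases before to 50 after the start of each gene) held 24 of the 32 genes. The letters TTTGAA, the core of the CHR element, were searched on both strands. They occurred in 20.2% of all 27025 genes with a promoter, in 10 of 14 mitotic genes (71.4%) and in 1 of 9 replication genes (11.1%), Mcm2. In Bub1b, Knl1, Aurka and Plk1 they lay only after the start. The letters TTTCGCGC or TTTGGCGC, a strict form of the E2F site, occurred in 0.929% of all genes. They were found in 4 of 9 replication genes (44.4%: Mcm3, Mcm5, Mcm6 and Mcm7), in Mcm3 and Mcm7 only after the start. Of 14 mitotic genes 1 held them (7.14%), Cdk1. The CCAAT box was found in 41.1% of all genes, in 12 of 14 mitotic genes (85.7%) and in 8 of 9 replication genes (88.9%). The 150 bases before the start are printed 5′ to 3′ along the gene's own strand, with matches to these motifs in capitals, for Cdk1 at chr10:69352913-69353062 (minus strand), Cdc20 at chr4:118437344-118437493 (minus strand), Cdc25b at chr2:131186798-131186947 (plus strand), Mcm6 at chr1:128359706-128359855 (minus strand) and Mcm7 at chr5:138171884-138172033 (minus strand). These windows lie upstream of the annotated transcripts.
Cdk1: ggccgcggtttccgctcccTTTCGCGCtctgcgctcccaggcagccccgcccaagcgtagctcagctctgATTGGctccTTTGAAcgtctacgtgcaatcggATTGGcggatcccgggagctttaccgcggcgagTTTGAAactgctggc
Cdc20: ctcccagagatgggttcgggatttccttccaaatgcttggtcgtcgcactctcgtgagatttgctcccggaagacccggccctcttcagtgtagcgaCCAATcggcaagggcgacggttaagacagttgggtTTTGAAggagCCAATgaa
Cdc25b: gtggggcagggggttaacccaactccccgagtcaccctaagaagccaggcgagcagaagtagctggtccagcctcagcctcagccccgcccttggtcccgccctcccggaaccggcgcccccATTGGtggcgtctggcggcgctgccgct
Mcm6: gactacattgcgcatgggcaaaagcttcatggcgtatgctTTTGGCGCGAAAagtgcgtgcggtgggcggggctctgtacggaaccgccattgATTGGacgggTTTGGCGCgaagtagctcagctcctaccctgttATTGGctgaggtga
Mcm7: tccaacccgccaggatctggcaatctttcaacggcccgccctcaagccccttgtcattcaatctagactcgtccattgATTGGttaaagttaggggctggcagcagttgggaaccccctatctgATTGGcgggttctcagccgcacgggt
The Cdk1 window holds CHR letters, CCAAT boxes and an E2F match together, and that of Cdc20 holds CHR letters with a CCAAT box on each side. Cdc25b shows a single CCAAT box, read on the opposite strand. Mcm6 shows E2F matches, of which the first 2 overlap, beside CCAAT boxes. The window of Mcm7, before 1 of its 2 listed starts, has CCAAT boxes only, its E2F match lying after the start. A match is a description of letters, not of a bound site.

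Before the results on the cell cycle, 3 features of the arrays have to be stated. The second +/+ control array had the fewest probes well above background (22706 of 41174, against up to 26680), the most flagged spots (206, against 74 to 116 elsewhere) and the lowest mean correlation with its own group (0.935). Its mitotic genes lay at a median of -0.93 from their mean over the 12 arrays, whereas the other 5 control arrays lay between 0.43 and 1.42 above it. The third mouse of each genotype, whose arrays share a slide, had high replication genes already in control cells (median deviation 0.12 in +/+ and 0.26 in -/-, against -0.40 to -0.68 on the other 4 control arrays). Finally, the log2 ratio of 3′ over 5′ signal in 1 set of labelled control probes was 1.80 to 2.25 on control arrays and 2.31 to 2.71 on shTLS arrays, without overlap, while the ranges of the other 4 of 5 sets overlapped between vectors. The 75th percentile of the processed signal before normalization was 764 to 1007 on control arrays against 327 to 595 on shTLS arrays. The part of these array features in the results was not tested, and slide position and group cannot be told apart, since each group held the same position on every slide.

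**Figure D1:**
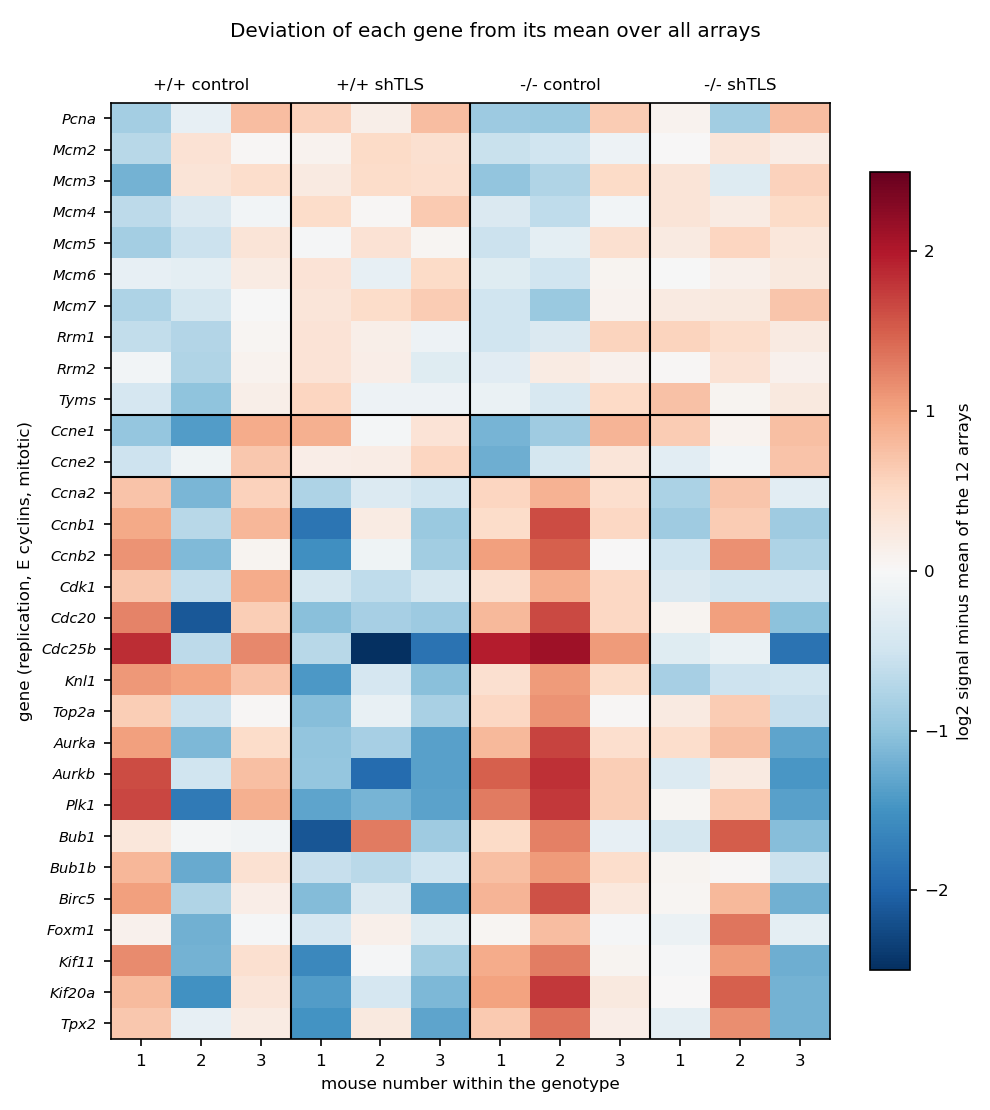
Each gene's log2 signal on each of the 12 arrays minus its mean over all arrays (colour scale, red above the mean, blue below), with genes in rows by role and arrays in columns by group and mouse. Mitotic genes are mostly red in control and blue in shTLS arrays, except on the second +/+ control array and the second -/- shTLS array, where 15 of 18 mitotic genes lie above their mean (median 0.72), while replication genes, on this quantile scale, are mostly blue on 4 of 6 control arrays; their averaged median on the spike-in scale is -0.29.

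The main comparison asked what shTLS does to these genes, averaged over both genotypes and thus drawn from 6 mice. Replication genes were higher and mitotic genes lower with shTLS relative to the rest of the array, while on a scale set by spike-in controls, given next, the replication genes had a median of -0.29. The median difference was 0.50 over the 10 replication genes, all of them positive, and -0.92 over the 18 mitotic genes, of which 17 were negative, beside -0.02 over all 19019 genes tested. Among replication genes 2 rose, Mcm4 and Mcm7, against 5.15% of all genes called higher. Among mitotic genes 4 fell, Knl1, Cdc25b, Aurkb and Cdk1, against 3.11% of all genes called lower, and 0 mitotic genes rose. Calls rest on limma's moderated test, with the p-values of all genes adjusted by the method of Benjamini and Hochberg and a threshold of 0.05. The fit behind these calls, like those that left out 1 array each, took both cultures of a mouse as independent. Fits with a block are given further below. Without the second +/+ control array 7 mitotic genes fell, with Bub1b, Plk1 and Cdc20 added, against 3.94% of all genes. No replication gene passed there, against 5.09% called higher (Mcm4 and Mcm7 both at an adjusted p of 0.058 in limma). This array was singled out after the values were seen, in part for its low mitotic genes. Leaving it out raises the control mean of most mitotic genes, so the added calls are not separate support for a fall.

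The direction of the replication genes depends on the scaling. When arrays were scaled to 8 spike-in control probes in place of the quantiles, the median of all genes itself fell by 0.81 with shTLS. On that scale 8 of 10 replication genes were negative (median -0.29) and 0 were called, and the mitotic genes had a median of -1.76, with 16 of 18 called lower against 51.4% of all genes. Relative to the median of all genes the values stayed close to those above, at 0.53 for replication and -0.94 for mitotic genes.

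The helicase that unwinds DNA at replication forks held both called rises. Mcm4, one of its core subunits, read 14.34, 14.65 and 14.93 in +/+ control cells and 15.46, 15.03 and 15.65 with shTLS. The -/- control arrays read 14.64, 14.37 and 14.94 and the -/- shTLS arrays 15.32, 15.21 and 15.47. All 6 shTLS arrays lay above all 6 control arrays, a pattern found in 4.01% of all genes. Its averaged difference was 0.71 (SE 0.19, 1.64-fold, limma adjusted p = 0.0439, 12 arrays from 6 mice, not paired), and 0.02 when scaled to the spike-ins. The call held in 3 of 12 fits that left out 1 array each, those without +/+ control array 3, -/- control array 3 or +/+ shTLS array 2, with adjusted p up to 0.111. Mcm7, another subunit of the core, read 13.75, 14.07 and 14.51 in +/+ control and 14.81, 14.97 and 15.14 in +/+ shTLS cells. The corresponding signals in -/- cells were 14.02, 13.59 and 14.60 and then 14.73, 14.76 and 15.20. The groups of Mcm7 did not overlap either, and its averaged difference was 0.84 (SE 0.22, 1.80-fold, limma adjusted p = 0.0418), or 0.10 when scaled to the spike-ins. Its call held in 2 of 12 fits with an array left out, those without +/+ control array 3 or -/- control array 3, with limma adjusted p up to 0.103.

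Mcm2, a further subunit, read 10.98, 12.03 and 11.71 in +/+ control and 11.77, 12.15 and 12.07 in +/+ shTLS cells. Signals were 11.12, 11.18 and 11.55 in -/- control and 11.69, 11.98 and 11.87 in -/- shTLS cells. It was higher in 6 of 6 mice with overlapping groups. Its difference of 0.49 (SE 0.21) did not pass without a block (limma adjusted p = 0.150). That difference passed with the replicate number (limma adjusted p = 0.0431) or the mouse (limma adjusted p = 0.0391) as a block. The spike-in scale turned it to -0.37. The remaining subunits were measured as Mcm3 at 0.56, Mcm5 at 0.48 and Mcm6 at 0.32, of which only Mcm6 was higher in all 6 mice.

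Pcna, the sliding clamp that holds polymerases on DNA, read 14.71, 15.36 and 16.33 in +/+ control and 16.15, 15.71 and 16.35 in +/+ shTLS cells. On -/- arrays the signal was 14.66, 14.63 and 16.20 under the control hairpin and 15.66, 14.70 and 16.33 under shTLS. The control arrays of the third mice were close to the highest shTLS arrays, and the gain within a mouse was 0.01 (+/+) and 0.13 (-/-) there, 0.35 and 0.06 in the second mice, and 1.44 and 1.00 in the first mice. The averaged difference of Pcna was 0.50 (SE 0.40, 95% interval -0.38 to 1.37), and -0.11 when scaled to the spike-ins.

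Rrm2, the small subunit of ribonucleotide reductase, read 12.86, 12.17 and 13.00 in +/+ control and 13.26, 13.10 and 12.62 in +/+ shTLS cells. Control cells of -/- mice gave 12.64, 13.12 and 13.04, and their shTLS cells gave 12.95, 13.28 and 13.03. With a difference of 0.24 (95% interval -0.22 to 0.69) Rrm2 had the smallest value among the replication genes, and it was -0.59 when scaled to the spike-ins. Rrm1, the large subunit of the reductase, and Tyms, which makes thymidylate, had differences of 0.53 and 0.44, did not pass, and were each higher in 4 of 6 mice and lower in the third mouse of each genotype.

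Ccne1, the cyclin that drives Cdk2 at the start of S phase, read 14.56, 14.13 and 16.45 in +/+ control and 16.41, 15.48 and 15.87 in +/+ shTLS cells. The -/- control arrays read 14.38, 14.65 and 16.38 and the -/- shTLS arrays 16.18, 15.62 and 16.28. The third control array of each genotype was higher than every shTLS array of that genotype, and the averaged difference of 0.88 (SE 0.45, 95% interval -0.12 to 1.89) did not pass. The other probe of Ccne1 gave 1.38 and was higher in 6 of 6 mice. Ccne2, its close relative, had a difference of 0.43 (95% interval -0.25 to 1.11), and -0.40 when scaled to the spike-ins.

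**Figure D2:**
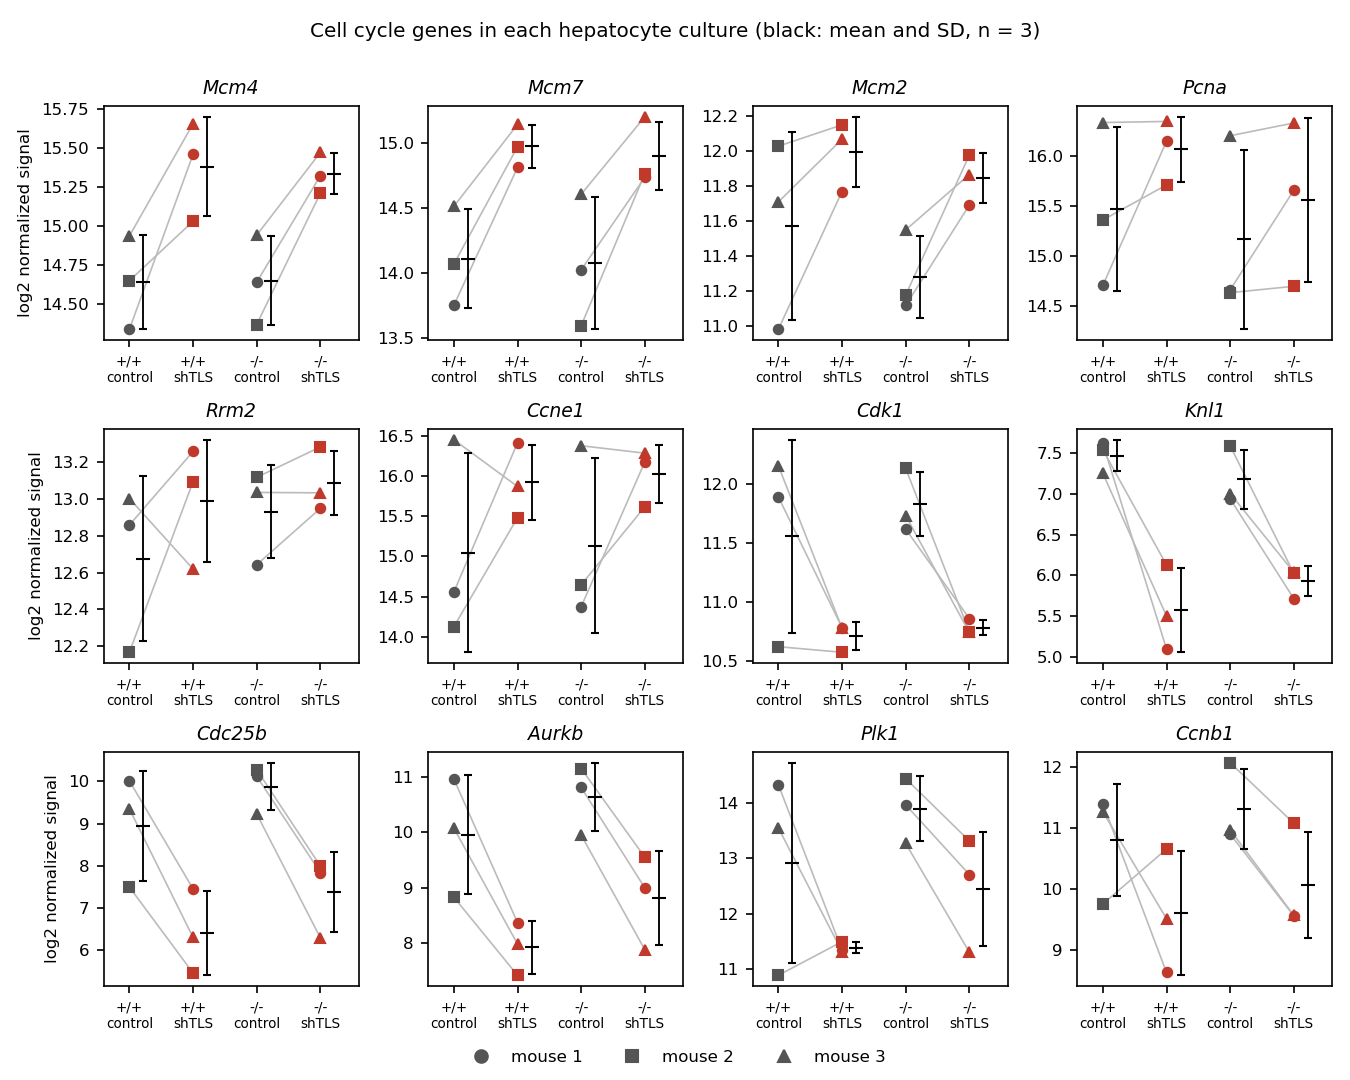
Log2 normalized signal of 12 genes on each array, by group (horizontal axis), with grey lines joining the control and shTLS culture of a mouse and black bars for mean and SD (n = 3). Mcm4 and Mcm7 lie higher and Knl1 lower on all 6 shTLS arrays than on all 6 control arrays, and the second +/+ control mouse (square) lies low for Cdk1, Plk1 and Ccnb1; on the spike-in scale the averaged differences of Mcm4 and Mcm7 are 0.02 and 0.10.

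Among mitotic genes the engine of entry into mitosis was measured through Cdk1 and its partners. Cdk1, the kinase itself, read 11.89, 10.62 and 12.15 in +/+ control and 10.79, 10.58 and 10.78 in +/+ shTLS cells. Signals were 11.62, 12.13 and 11.73 in -/- control and 10.86, 10.75 and 10.74 in -/- shTLS cells. All shTLS arrays fell within a narrow band, and the second +/+ control array was the 1 control array inside it. The averaged difference was -0.94 (SE 0.25, 1.92-fold, limma adjusted p = 0.0467), and the call held in 1 of 12 fits that left out 1 array each, the one without the second +/+ control array (-1.17, limma adjusted p = 0.00434; the highest in the other fits was 0.114). Cdc25b, a phosphatase that removes the inhibitory phosphates from Cdk1, read 10.01, 7.50 and 9.35 in +/+ control and 7.46, 5.47 and 6.31 in +/+ shTLS cells. It read 10.12, 10.27 and 9.23 in -/- control and 7.84, 8.0 and 6.30 in -/- shTLS cells. Within mice Cdc25b was lower by similar amounts, between -3.04 and -2.03, including the second +/+ mouse. Its fold of 5.72 (limma adjusted p = 0.0161) held in 12 of 12 fits with an array left out. Another probe of Cdc25b, above background on all 12 arrays, gave -1.66 and was lower in 6 of 6 mice, and the third was above background on 0 arrays.

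Ccnb1, the B cyclin that activates Cdk1, read 11.40, 9.75 and 11.27 in +/+ control and 8.63, 10.65 and 9.51 in +/+ shTLS cells. On -/- arrays the signal was 10.90, 12.07 and 10.97 under the control hairpin and 9.56, 11.08 and 9.56 under shTLS. It was lower in 5 of 6 mice and higher in the second +/+ mouse, and the difference of -1.23 (SE 0.46, 95% interval -2.23 to -0.22) did not pass over all genes (limma adjusted p = 0.113). Of its other 2 probes, 1 was lower in all 6 mice and 1 in 5, with averaged differences of -1.81 and -1.69. Ccnb2 and Ccna2, the second B cyclin and the A cyclin of S and G2 phase, had differences of -0.88 and -0.66 with the same exception.

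Knl1, the kinetochore scaffold that recruits checkpoint proteins to chromosomes, read 7.62, 7.54 and 7.25 in +/+ control and 5.09, 6.13 and 5.50 in +/+ shTLS cells. Control cells of -/- mice gave 6.94, 7.59 and 7.01, and their shTLS cells gave 5.71, 6.02 and 6.04. It was the 1 mitotic gene whose 6 shTLS arrays lay below all 6 control arrays, as did 2.1% of all genes, and its second +/+ control array was as high as the others. The averaged difference of Knl1 was -1.58 (SE 0.22, 2.99-fold, limma adjusted p = 0.00203) and held in 12 of 12 fits with an array left out. Its other probe, above background on 11 arrays, gave -0.87 and was lower in 5 of 6 mice.

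Aurkb, the kinase of the chromosomal passenger complex that corrects faulty spindle attachments, read 10.97, 8.83 and 10.08 in +/+ control and 8.37, 7.41 and 7.98 in +/+ shTLS cells. It read 10.82, 11.16 and 9.95 in -/- control and 9.0, 9.55 and 7.88 in -/- shTLS cells. Lower in 6 of 6 mice, Aurkb had an averaged difference of -1.94 (SE 0.42, 3.83-fold, limma adjusted p = 0.0208), and the call held in 8 of 12 fits with an array left out. It was lost without -/- control array 1 or 2, -/- shTLS array 3 or +/+ shTLS array 3, with limma adjusted p up to 0.0596. Birc5 (survivin), its partner in the complex, had a difference of -1.04 and did not pass (limma adjusted p = 0.134).

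Plk1, a kinase of mitotic entry and spindle assembly, read 14.32, 10.90 and 13.55 in +/+ control and 11.35, 11.50 and 11.32 in +/+ shTLS cells. The -/- control arrays read 13.96, 14.43 and 13.27 and the -/- shTLS arrays 12.71, 13.31 and 11.31. The second +/+ control array was the lowest of all 12, and with it the difference of -1.49 (SE 0.55) did not pass (limma adjusted p = 0.113), whereas without it Plk1 fell by 1.99 (SE 0.37, limma adjusted p = 0.0151). Aurka, the centrosomal kinase, and Tpx2, which activates it on the spindle, had differences of -1.10 and -0.94. The spindle motor Kif11 and Kif20a, a kinesin of cytokinesis, had -0.89 and -0.87. Cdc20, which switches on the anaphase-promoting complex, had -0.91, and the checkpoint genes Bub1b and Bub1 had -0.73 and -0.57. None of these 7 passed in the fit to all arrays, where the upper bounds of their 95% intervals ran from -0.11 for Aurka to 0.74 for Bub1, although Cdc20 (-1.42) and Bub1b (-1.05) did without the second +/+ control array.

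Top2a, which untangles sister chromosomes, read 9.47, 8.31 and 8.89 in +/+ control and 7.79, 8.66 and 8.04 in +/+ shTLS cells. Signals were 9.36, 9.97 and 8.88 in -/- control and 9.07, 9.48 and 8.28 in -/- shTLS cells. The groups overlapped, and the difference of -0.60 (95% interval -1.27 to 0.07) did not pass. Foxm1, a transcription factor of the G2 and M genes, was the 1 mitotic member with a positive value, at 0.11 (95% interval -0.64 to 0.86), with -0.80 on the spike-in scale and -0.09 once the second +/+ control array was left out.

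**Figure D3:**
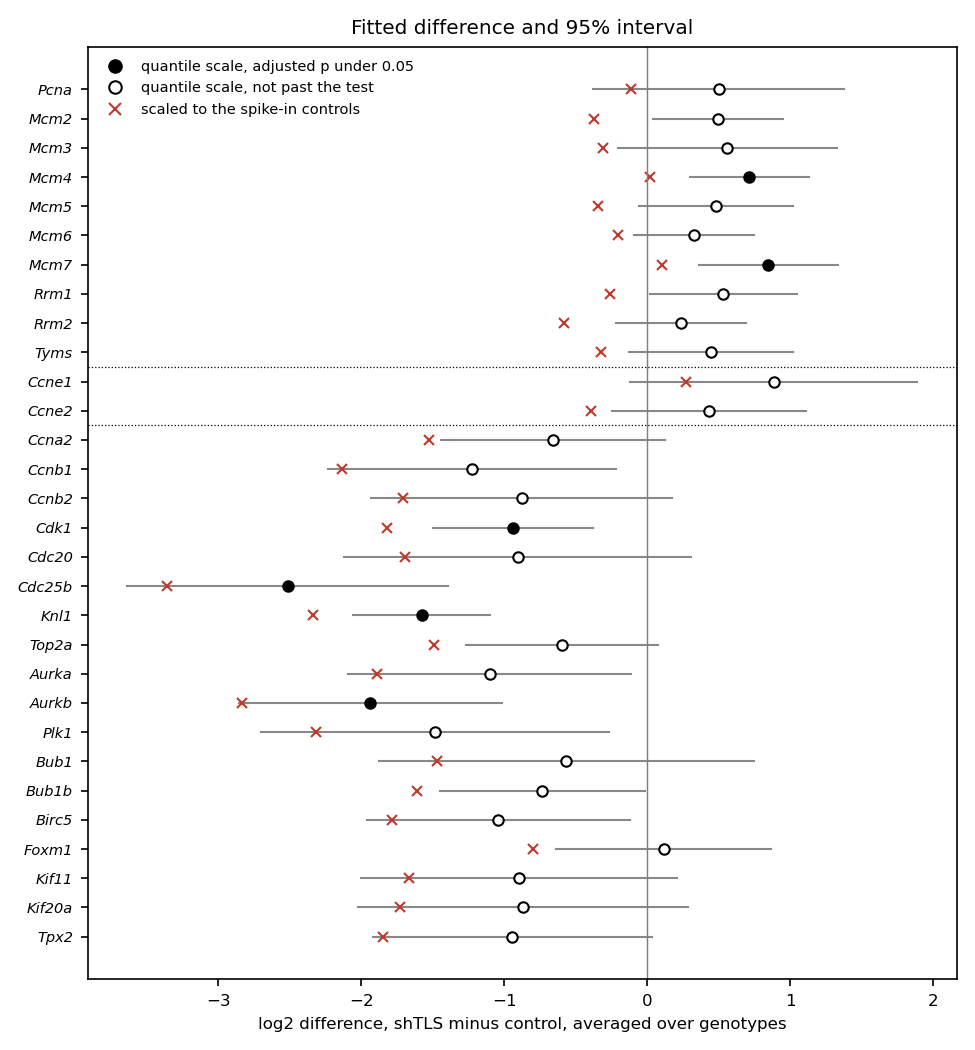
Log2 difference between shTLS and control cells averaged over genotypes for the 30 genes, on the quantile scale with its 95% interval (circles, filled where the adjusted p is under 0.05) and on the spike-in scale (crosses). Replication genes lie above 0 on the quantile scale and 8 of 10 below it on the spike-in scale, while 17 of 18 mitotic genes lie below 0 on the first scale and all 18 on the second.

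Arrays of the same number and genotype come from 1 mouse, so the difference was also taken within each mouse. The median over replication genes was 0.96, 0.63 and -0.01 in +/+ mice 1, 2 and 3 and 0.75, 0.71 and 0.12 in -/- mice 1, 2 and 3. On this quantile scale replication genes were thus higher in both first and both second mice, and near 0 in the third mouse of each genotype, whose control cells were already high. For mitotic genes the medians were -2.23, 0.59 and -1.47 in +/+ mice and -0.94, -0.70 and -1.31 in -/- mice. The single positive median came from the second +/+ mouse, where 14 of 18 mitotic genes were higher with shTLS, against 0, 0, 0, 2 and 0 in the other mice.

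Over the 6 mice 5 of 10 replication genes were higher in every mouse (Pcna, Mcm2, Mcm4, Mcm6 and Mcm7), beside 19.4% of all genes. The 4 of 18 mitotic genes lower in every mouse (Cdk1, Cdc25b, Knl1 and Aurkb) are a share near the 18.9% of all genes. Lower in at least 5 of 6 mice were 16 of the 18, beside 32.6% of all genes. With the replicate number as a block, 3 replication genes rose (Mcm2, Mcm4 and Mcm7), against 15.3% of all genes, and the 4 mitotic genes above fell, against 13.7%. With the mouse as a block 7 mitotic genes fell, against 16% of all genes, with Aurka, Plk1 and Birc5 added. In that fit Mcm2, Mcm4 and Mcm7 rose, where 3190 of 19019 genes were called higher. With the replicate block and without the second +/+ control array, a choice made after the values were seen, 16 of 18 mitotic genes fell, all but Bub1 and Foxm1, against 16.8% of all genes called lower, and 3 replication genes rose, against 16.4% called higher.

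**Figure D4:**
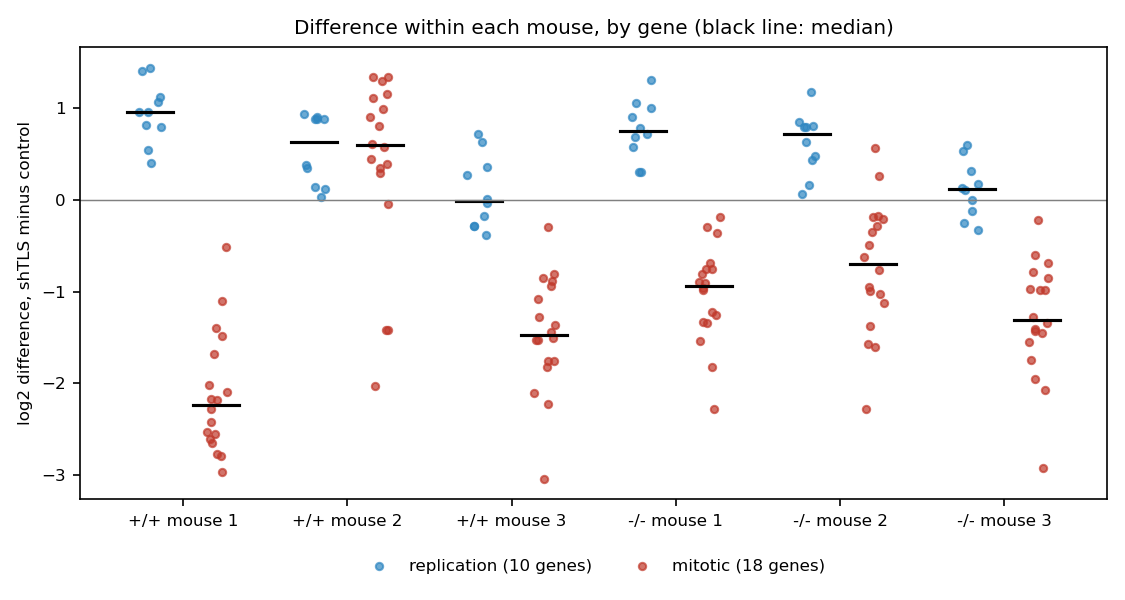
Log2 difference between the shTLS and the control culture of each mouse (vertical axis, quantile scale) for 10 replication genes (blue) and 18 mitotic genes (red), with the median as a black line. Mitotic genes lie below 0 in all mice except +/+ mouse 2 and, for Bub1 (0.26) and Foxm1 (0.56), -/- mouse 2, and replication genes lie around 0 in the third mouse of each genotype; on the spike-in scale the averaged median of the replication genes is -0.29.

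Within a single genotype, with 3 mice, fewer calls were made although the values were similar. In +/+ cells the median was 0.51 over replication and -0.92 over mitotic genes, and Knl1 was the 1 gene of the 30 past the test, against 1.2% of all genes called. That call was lost without +/+ control array 1 (limma adjusted p = 0.0634) or +/+ shTLS array 3 (0.0686). With the replicate block Cdc25b and Aurkb also fell and Mcm4 and Mcm7 rose in +/+ cells, against 12.5% of all genes. In -/- cells the median was 0.49 over replication and -0.94 over mitotic genes, and limma called 0 of 30 against 0.994% of all genes, with 6 of 30 at an unadjusted p under 0.05, beside 12.2% of all genes. On the spike-in scale the replication medians were -0.28 in +/+ and -0.24 in -/- cells. On the quantile scale Knl1 passed in -/- cells with the replicate block (-1.26, limma adjusted p = 0.0191), against 6.22% of all genes. Without the second +/+ control array and with the block, 16 mitotic genes fell in +/+ cells, against 6.98% of all genes, and 8 in -/- cells, against 3.64%.

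Whether shTLS acted differently in both genotypes was tested by the difference between its effects. limma called 0 of 30 genes and 0 of 19019 (0% called), and 0 of the 30 and 50 of all genes had an unadjusted p under 0.05. The largest such difference was that of Knl1, 0.65 (95% interval -0.31 to 1.60), with a smaller fall in -/- cells. For Aurkb the interval ran from -1.63 to 2.04 and for Cdk1 from -1.32 to 0.92.

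The genotypes were compared under each vector and averaged over both. Replication genes had medians of -0.01 with the control hairpin, -0.06 with shTLS and -0.04 averaged, and mitotic genes 0.66, 0.78 and 0.67, higher in -/- cells. limma called 0 of the 30 genes in each of these comparisons, against 0.0894%, 0.0841% and 0.116% of all genes, and 0 of 30 had an unadjusted p under 0.05. Kif20a had the highest averaged value, 1.12 (95% interval -0.53 to 2.77), followed by Cdc20 at 1.02 and Plk1 at 1.01. Without the second +/+ control array the mitotic median with the control hairpin was 0.17 with 12 of 18 positive, and with shTLS, where that array takes no part in the means, it remained 0.78 with 18 of 18 positive. Both shTLS and genotype comparisons share these 12 arrays.

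Other genes of the same processes were taken from lists of names, which, like the members, were chosen with earlier results of these data known. Of 42 other replication genes measured 37 had positive averaged differences (median 0.47, or -0.37 when scaled to the spike-ins), and 2 rose, a share near the 5.15% of all genes called higher: Mcm10, which helps to activate the helicase, at 1.48 and Prim2, a primase subunit, at 0.79. With the replicate block 15 of the 42 rose, against 15.3% of all genes, among them the origin licensing genes Cdc6 (1.40), Orc1 (1.23) and Cdt1 (0.61). On the spike-in scale Cdt1 read -0.12 and Prim2 -0.07, while Mcm10, Cdc6 and Orc1 had positive values of 0.66, 0.51 and 0.36.

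Of 58 other mitotic genes 47 had negative differences (median -0.48, and -1.29 when scaled to the spike-ins). Ube2c, the ubiquitin-conjugating enzyme of the anaphase-promoting complex, fell by 1.86, Nusap1, a spindle protein, by 1.61 and Cks1b, a subunit of cyclin-dependent kinases, by 0.99. Mis12, a kinetochore gene, rose by 1.27 and is the 1 call against the others, at 0.38 on the spike-in scale. The 3 falls and 1 rise among 58 genes stand beside 3.11% of all genes called lower and 5.15% called higher. With the block 7 fell, a share near the 13.7% of all genes called lower, and 1 rose. The falls added were Cenpf (-1.42), Espl1 (-1.43), Racgap1 (-1.33) and Zwint (-0.71). Without the second +/+ control array, singled out after the values were seen, 13 of the 58 fell, against 3.94% of all genes.

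The regulators of the cycle, 41 genes such as E2F factors, pocket proteins, MuvB subunits, G1 cyclins, kinases and inhibitors, had a median of 0.19 (-0.66 on the spike-in scale) and limma called 0 of 41, against 8.27% of all genes. With the block 8 rose and 5 fell, a share near the 29% of all genes called in that fit. E2f3 (1.30), E2f7 (1.15), E2f8 (0.98), the pocket protein Rbl1 (0.64), Lin54 (0.64), Mybl1 (1.09), Ccng1 (0.50) and the inhibitor Cdkn1c (1.35) rose in that fit. Rb1 (-0.45), Rbl2 (-0.84), E2f4 (-0.64), Cdk6 (-0.63) and Cdk7 (-0.59) fell in it. On the spike-in scale the values of Rbl1, Lin54 and Ccng1 were -0.23, -0.25 and -0.25.

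Hepatocyte markers such as Alb and Ttr were well above background on all 12 arrays, and genes of other liver cells were detected too. The summed normalized signal of 11 macrophage markers was 6866 to 17347 in +/+ control, 5499 to 11626 in +/+ shTLS, 12548 to 88819 in -/- control and 8520 to 30452 in -/- shTLS cells. All 11 had negative averaged differences with shTLS (median -1.10, and -1.78 without the second +/+ control array), limma called 0 of them and 3 fell with the block, against 13.7% of all genes. The sum of 7 cholangiocyte markers was 40832 to 142857 in +/+ and 49636 to 215516 in -/- control cells. With shTLS it was 19255 to 44530 in +/+ and 18796 to 62498 in -/- cells. Such sums of linear signal weigh the brightest markers most. Named after their values were seen were Krt19 at -2.11 and Spp1 at -1.61, which fell with the block, against 13.7% of all genes called lower. Medians were -0.40 for the cholangiocyte markers, -0.62 for 9 hepatocyte, 0.27 for 10 endothelial (-0.61 on the spike-in scale) and -0.27 for 8 stellate markers, and of 10 lymphocyte markers 4 were bright enough to test, with Cd8a, Klrb1c and Nkg7 above background on 0 arrays. The medians of the macrophage, cholangiocyte, hepatocyte and stellate markers were thus negative, as was that of the mitotic genes, and their part in the result was not tested. In such bulk samples fewer cells of a type and less RNA per cell cannot be told apart.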

How the data were processed

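Each of 12 cultures gave 1 Cy3-labelled sample on a 1-colour Agilent array. Per the file headers the array files hold processed signals as linear intensity, background-subtracted, from Feature Extraction 10.1.1.1. The deposited table holds log2 values for which the authors, per the labels, set signals below 1 to 1 and quantile normalized. Its columns correlated by at least 0.998 with the log2 processed signals. Values of that table were used as deposited.

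Probes entered the tests (24965 of 41174) when 1 or more groups had them well above background on each of 3 arrays. Symbols came through RefSeq accessions (GRCm38.p6, names only, since the headers name another build): 24375 probes matched and 16799 did not. The brightest tested probe stood for a gene.

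One fit of 4 group means in limma 3.58.1 (R 4.3.3, statmod 1.5.0) gave 7 comparisons, with Benjamini-Hochberg adjustment over 19019 genes. The genotype comparison over both vectors used a random block for the mouse. limma was tested on simulated data. Alternatives were other scalings (75th percentile, spike-ins), normexp background correction, values recomputed from the array files, other filters and probe rules, the replicate number or the mouse as a block, only the groups compared, each array left out, and, chosen after seeing the data, the replicate block without the second +/+ control array. Same-numbered arrays of a genotype share a mouse, per the labels' source names, and their deviations from group means correlated by 0.458 to 0.671 (6 pairs). Same-numbered arrays of different mice gave 0.233 to 0.642 (12 pairs), and arrays of different numbers at most 0.0959 (36 pairs). The number is also the slide. Shown by array are genes past the test in any comparison or, averaged, with the replicate block, plus 10 set by name (8 with a probe). Of the other lists, genes called in the averaged comparison are named, and genes called with the block were named after their values were seen. Members and lists were chosen with earlier results of these data known. With 3 arrays per group, their number limits precision. The level of the gene targeted by the hairpin is not reported here.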

Additional observations from a re-analysis of the deposited data

How the results depend on the processing

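Counts of called genes moved with the design, mainly of mitotic genes. In +/+ cells the 1 mitotic gene called lower became 6 when scaled to the spike-ins (where 21.2% of all genes, 4025 of 19019, were called lower, against 34 before), 3 with the replicate block, 3 with the mouse as a block, 0 with the mean of all tested probes, 0 with only the groups compared, 0 to 2 with an array left out, and 16 with the replicate block and no second +/+ control array. Replication genes called higher there went from 0 to 2, 1 and 2 with the replicate block, the mouse block and the last setting. In -/- cells the mitotic count went from 0 to 1 (spike-ins), 1 (replicate block), 3 (mouse block) and 8 (block and no second +/+ control array), and the replication count from 0 to 1 with the mouse block and 1 with the last setting. Averaged over genotypes, the 4 mitotic genes became 16 with the spike-ins, 7 with the mouse block, 2 to 7 with an array left out and 16 with the last setting. The 2 replication genes became 0 with the spike-ins, 1 without the filter on dim probes and 0 to 2 with an array left out. With the replicate block, and likewise with the mouse block, Mcm2 was called higher beside Mcm4 and Mcm7. The replicate block joins same-numbered cultures of both genotypes, whereas the mouse block pairs the cultures of 1 mouse. The replicate block changed no other call among the genes given by array than those named in the report.

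For the 13 genes given by array, in the 3 shTLS comparisons, values turned negative on the spike-in scale, on which the median of all genes is lower with shTLS, for Mcm2 (-0.49 in +/+, -0.26 in -/-, -0.37 averaged), Rrm2 (-0.54, -0.63 and -0.59), Pcna (-0.23 in -/-, -0.11 averaged) and Mcm4 (-0.0018 in -/-). Rrm2 in +/+ cells was also -0.020 with the block and no second +/+ control array, and the cause was not tested. Of the other members, the remaining replication genes, Ccne2 (-0.40) and Foxm1 (-0.80) were also negative on the spike-in scale in the average. Of 884 values of those 13 genes in these comparisons under all alternatives 785 kept direction and side of the threshold, 46 passed newly, 43 were lost and 10 turned.

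The number of mice (3 per genotype), the fixed slide positions of the groups and the single probe of most genes limit these results.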
